A study of Mus musculus with 6 samples.

Results

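The wide nuclear regions are the 318 entries of 500 bp or more in a list of genomic regions recovered with the RNA Meg3 from mouse insulinoma cells. They make up 3.53% (95% exact Clopper-Pearson interval 3.16 to 3.93) of the 9005 nuclear regions in a list of 9010. The members were chosen by their width, end minus start, so that width is a description here and not a finding. The list was obtained by ChIRP, in which cross-linked chromatin is captured through an RNA with biotinylated probes against that RNA and the attached DNA is sequenced. The cells were MIN6-4N, a mouse pancreatic beta cell line, transfected with pcDNA3.1 carrying Meg3 or with pcDNA3.1 alone. A single clone of each was kept, M5 for Meg3 and V3 for the vector, both selected with 750 µg/ml and grown with 500 µg/ml of G418. Each clone gave 3 libraries (an input without probe, an odd-probe and an even-probe capture) from chromatin cross-linked with 1% glutaraldehyde. The list analysed carries the code of the Meg3 clone. Clone V3 and the separate libraries were not analysed here.

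Meg3 is a long noncoding RNA made from the maternal copy of an imprinted domain on mouse chromosome 12. It is known as a growth suppressor that is often silenced in endocrine tumours, and it has been described as a partner of the Polycomb complex that methylates histone H3. In ChIRP a broad region can arise where reads from many overlapping fragments pile up side by side, whereas a narrow region may hold few fragment positions. The width of a region can therefore depend on the number of fragments as well as on the size of the bound stretch and on the settings of the peak caller. Its relation to signal was not tested, because 0 rows of the list hold a height, a fold or a p-value.

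With 1 library in every group, and with nothing in the list that refers to a single library, no comparison below has replicates and no p-value is given. Intervals are at 95% and cover counting error only. They treat regions as independent, although neighbouring regions share their chromatin and all share the same libraries. The number of reads is unknown.

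The wide regions ranged from 500 to 962 bp, with a median of 558.5 bp and quartiles of 523 and 627 bp. The other nuclear regions had a median of 159 bp and reached 498 bp. Most members lay close to the limit. A width under 600 bp was found for 219 of them (68.9%), 99 reached 600 bp, 29 reached 700 bp, 12 reached 800 bp and 2 reached 900 bp. Within 10 bp above the limit lay 36 regions and within 10 bp below it 31, so that the counts ran on across the limit without a gap or a drop. Although few, the wide regions covered 186 kb, or 10.4% of the 1787 kb covered by all nuclear regions.

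**Figure D1:**
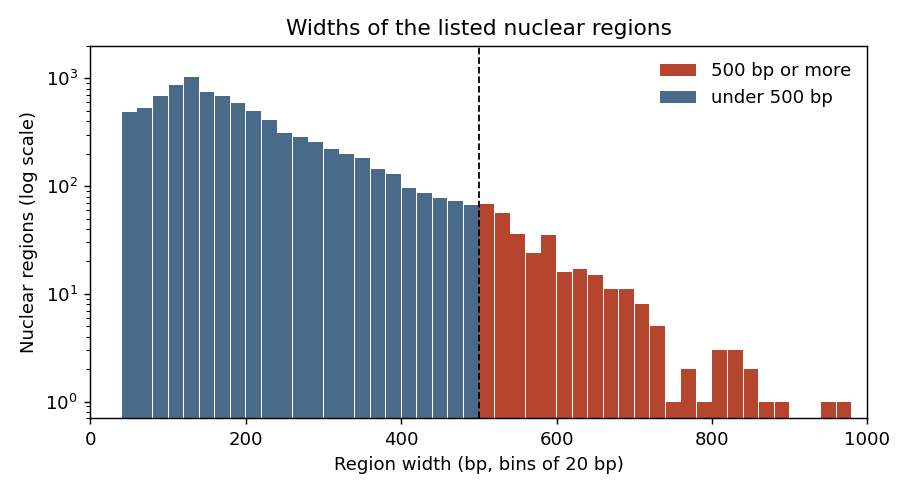
Number of nuclear regions (y axis, log scale) by width in bp (x axis, bins of 20 bp), with regions of 500 bp or more in red, the others in blue and the limit as a dashed line. The counts are highest in the bin from 120 bp and fall off towards wider regions, with no step at 500 bp, and the 12 regions of 800 bp or more form a thin tail that ends at 962 bp.

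The widest members are given by position (mm9) as called in the list, where the called width need not equal the length of the recovered DNA. The widest, chr7:51761695-51762656 (962 bp), lay in a 1 Mb window with 13 regions and had a neighbour 8.34 kb away. The next, chr15:83148222-83149166 (945 bp), stood farther from its neighbours, the nearest being 108 kb away. The region chr1:82551717-82552606 (890 bp) had as its nearest neighbour another wide region, chr1:82610988-82611684 (697 bp), at 59.2 kb. Chromosome 7 held 2 more of the 6 widest, chr7:86508131-86509000 (870 bp) and chr7:52748179-52749027 (849 bp). Between them in rank stood chr4:47165998-47166855 (858 bp). These were followed by chr1:54551961-54552791 (831 bp) and chr17:84919474-84920301 (828 bp), and by regions of 824 and 816 bp on chromosome 1. Ranks 11 to 15 were taken by chr12:72704035-72704844 (810 bp), chr14:55049773-55050573 (801 bp), chr4:89286653-89287433 (781 bp), chr13:98329238-98330013 (776 bp) and chr5:68268397-68269161 (765 bp). Ranks 16 to 20 were chr11:74661638-74662393 (756 bp), chr15:84129525-84130259 (735 bp), chr9:59408522-59409250 (729 bp), chr10:74629101-74629828 (728 bp) and chr9:54343561-54344287 (727 bp). The surroundings of these regions varied widely. The number of listed regions in their 1 Mb window ran from 2 for chr4:89286653-89287433 to 25 for the 824 bp region of chromosome 1. Genes and sequence at these positions were not analysed here, since no genome or annotation of mm9 was used.

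The first comparison asked whether wide regions were more common on some chromosomes. They occurred on all 20 nuclear chromosomes, in numbers from 2 on X to 33 on chromosome 1, with a median of 16. The share of a chromosome's regions that were wide was highest on chromosome 14, with 15 of 274 (5.47%, interval 3.10 to 8.87). It was lowest on X, with 2 of 107 (1.87%, 0.227 to 6.59), and on chromosome 3, with 9 of 473 (1.90%, 0.874 to 3.58). For 0 of the 20 chromosomes did the interval leave out the overall 3.53%. With these numbers of regions, no chromosome's share could be told apart from the overall share.

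**Figure D2:**
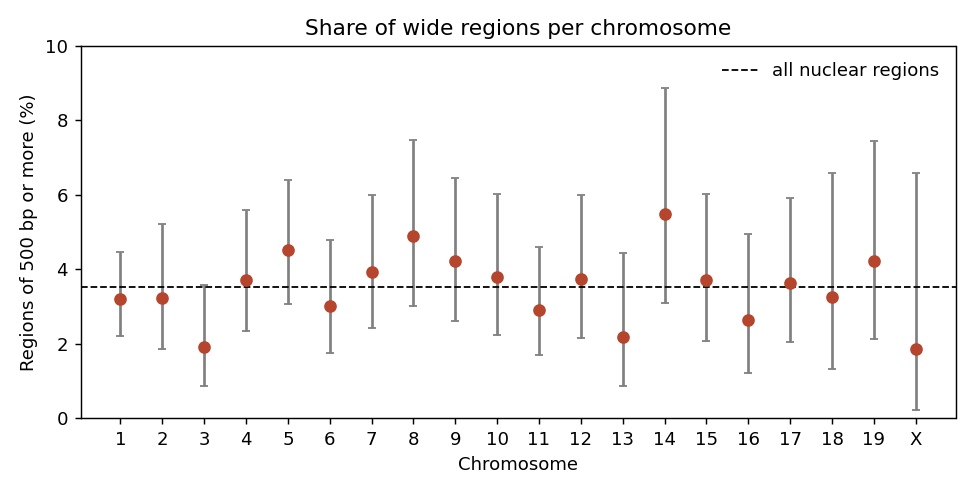
Share of each chromosome's regions that are 500 bp or wider (y axis, percent) by chromosome (x axis), as points with 95% exact Clopper-Pearson intervals. The dashed line is the share over all nuclear regions, 3.53%, and it crosses the interval of all 20 chromosomes, including chromosome 3, whose upper bound is 3.58%.

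Chromosome 1 is the chromosome with the most listed regions and had no surplus of wide ones. It held 10.4% of the wide regions (33 of 318, interval 7.25 to 14.3) and 11.5% of the others, a difference of -1.10 percentage points (Newcombe interval -4.07 to 2.79). Chromosome X held 0.629% of the wide regions and 1.21% of the others (difference -0.58 points, -1.10 to 1.07). Its 2 members, chrX:9267681-9268275 (595 bp) and chrX:130394019-130394646 (628 bp), lay 121 Mb apart. Chromosome 12, where Meg3 itself is encoded, held 16 wide regions of 429 (3.73%, 2.15 to 5.99), close to the overall share. Chromosome 7 had 3 of the 6 widest regions, but its share of wide regions was 3.93% (20 regions, 2.42 to 6.00). The median width of wide regions was highest on chromosome 9, at 643.5 bp. Regions of 600 bp or more made up 2.33% of chromosome 9 (11 of 473, 1.17 to 4.12) against 1.10% over all nuclear regions. This was the 1 chromosome of 20 whose interval left out the overall share at that limit. It was singled out after its values were seen, and the intervals are not adjusted for the 20 chromosomes looked at.

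The next comparison asked whether wide regions lay elsewhere along the chromosome than the others. Mouse chromosomes carry the centromere at the start of the numbered sequence, and positions were scaled so that a chromosome's outermost listed regions lie at 0 and 100%. The median position was 55.1% of the span (interval 46.6 to 59.2) for wide and 54.7% (53.2 to 55.8) for other regions. In the last 10% lay 37 wide regions (11.6%, 8.33 to 15.7) and 13.5% of the others (12.8 to 14.3), a difference of -1.89 points (-5.05 to 2.16). In the first 10% lay 29 wide regions (9.12%, 6.19 to 12.8) and 8.48% of the others (7.91 to 9.09), a difference of 0.636 points (-2.13 to 4.35). Neither interval left out 0. For regions of 600 bp or more the differences were -5.44 points in the last and -3.49 points in the first 10%, and in the first 20% that for regions of 500 bp or more was -1.50 points, so the direction at the centromere end turned with these settings. At 500 bp the interval allows a deficit at the far end of up to -5.05 points. By chromosome, the share in the last 10% was lower for wide than for other regions on 14 and higher on 6 of 20.

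The wide regions at the far end were unevenly spread over chromosomes. Chromosome 5 had 7 of its 30 and chromosome 4 had 6 of its 22 in the last 10%, whereas chromosomes 7 and 9 had 0 of 20 each. The other regions of chromosomes 7 and 9 had 12.1% and 9.93% there. For 20 members a count of 0 still allows a share of up to 16.8% (upper bound of the exact Clopper-Pearson interval). These chromosomes were singled out after their values were seen.

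**Figure D3:**
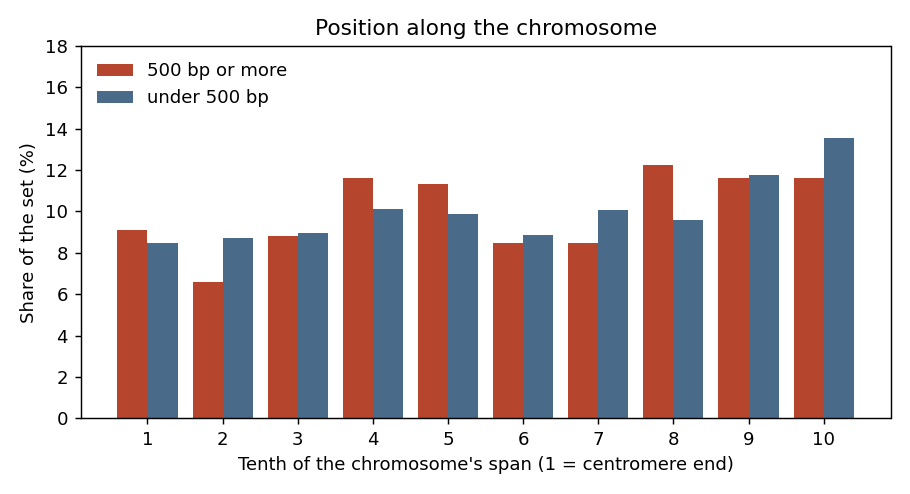
Share of wide (red) and other (blue) nuclear regions (y axis, percent of each set) in 10 equal parts of each chromosome's span between its outermost listed regions (x axis, part 1 at the centromere end). The blue bars are highest in part 10 at 13.5%, where the red bar is 11.6%, and the highest red bar is 12.3%, in part 8.

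The distance from a wide region to the nearest listed region of any width, taken between midpoints so that width itself does not shorten it, had a median of 61.4 kb (interval 50.1 to 76.5, quartiles 26.0 and 135 kb). For the other regions it was 74.0 kb (71.9 to 76.2, quartiles 28.6 and 166 kb). The ratio of the medians was 0.83. The interval for wide regions reached past that of the others, so the difference was within counting error for the list as deposited. After joining regions less than 1 kb apart, the ratio was 0.81 (0.645 to 0.984, bounds from the ends of both intervals), which left out 1. Of the 363 wide regions after joining, however, 45 were wide only through a neighbour under 1 kb. Nearness thus partly chose that set, and its ratio is no separate support for a shorter distance. The median was shorter for wide regions on 15 of 20 chromosomes and longer on 5. The largest excess was on chromosome 18, with 593 kb against 144 kb over only 7 wide regions.

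At short range the differences were small and their intervals held 0. A neighbour under 1 kb away was found for 5 wide regions (1.57%, 0.512 to 3.63) and for 1.52% of the others, a difference of 0.0528 points (-0.889 to 2.12). Under 10 kb the numbers were 35 (11.0%, 7.79 to 15.0) and 10.7%, a difference of 0.301 points (-2.76 to 4.27) that turned to -0.387 points without chromosome 7 and -0.309 points without chromosome 9. Under 100 kb they parted, with 209 wide regions (65.7%, 60.2 to 70.9) against 59.9% (58.8 to 60.9), a difference of 5.84 points (0.367 to 10.9). A nearest region over 500 kb away was found for 9 wide regions (2.83%) and for 4.37% of the others (difference -1.54 points, -2.95 to 0.95).

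**Figure D4:**
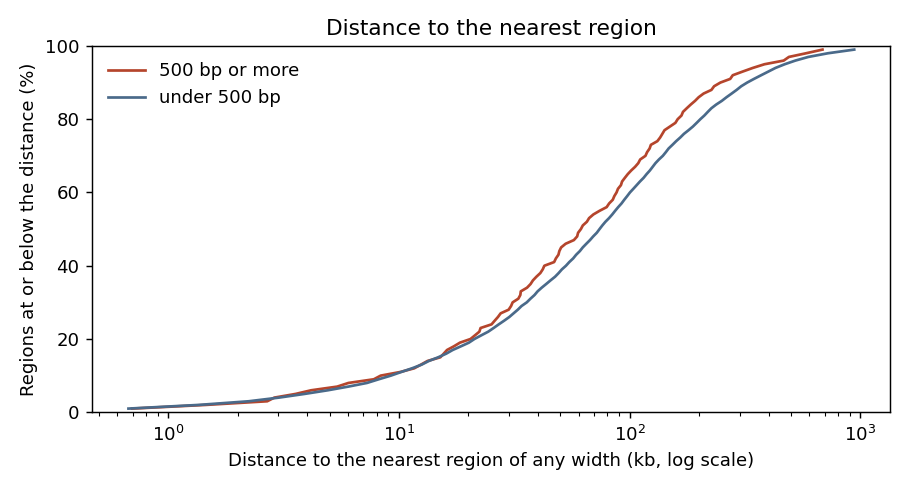
Share of wide (red) and other (blue) regions at or below a given distance (y axis, percent) to the nearest region of any width (x axis, kb, log scale). Each curve stands near 11% at 10 kb. The curves still run together at 20%, reached at 20.4 kb for wide and 21.2 kb for other regions. Farther out they part, with 65.7% of wide and 59.9% of other regions under 100 kb.

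An edge-to-edge gap under 1 kb to the next region was found for 7 of 318 wide regions. The same count was not made for the other regions. Between midpoints, a neighbour under 1 kb was as rare in both sets (1.57% of wide and 1.52% of other regions). In chr1:21399406-21399995 (590 bp) and chr5:118508539-118509247 (709 bp) the gap was 127 bp, to regions of 110 and 242 bp. In chr7:47117622-47118204 (583 bp) it was 208 bp, to a region of 271 bp. In chr15:84549713-84550264 (552 bp) it was 341 bp and in chr9:49549353-49549991 (639 bp) 400 bp. The last, at 894 bp and 940 bp, were chr11:3059860-3060375 (516 bp) and chr5:118548633-118549205 (573 bp). The nearest region of a wide region had a median width of 174 bp (162 to 190), against 165 bp (162 to 167) for the neighbours of other regions. Joining all nuclear regions less than 1000 bp apart would bring the number of 500 bp or more to 363, of which 45 hold no wide region as listed. With a limit of 200 bp it would be 321.

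The last planned comparison asked whether wide regions fell in dense stretches. A dense window was defined as a fixed 1 Mb window holding 8 or more listed regions. Such windows held 108 wide regions (34.0%, interval 28.8 to 39.5) and 28.3% of the others (27.3 to 29.2), a difference of 5.70 points (0.625 to 11.2). The other regions would have 28.4% in dense windows if they were spread over the chromosomes like the wide ones. By chromosome, the dense share was higher for wide regions on 11, lower on 7 and equal on 2. Chromosome 5 had 15 of 30 wide regions in dense windows (50.0%) against 27.7% of its others, and chromosome 16 had 6 of 9 against 30.9%. Chromosomes 11 (10 of 17, 58.8% against 38.5%) and 17 (9 of 15, 60.0% against 40.1%) lay the same way. These chromosomes were singled out after their values were seen. On chromosome 1 the values lay the other way, with 48.5% of wide and 52.7% of other regions. The main differences in shares were 4 (last 10%, first 10%, neighbour under 10 kb, dense windows). Among these, only that for dense windows had an interval that left out 0. The difference for a neighbour under 100 kb, also planned, left out 0 as well (5.84 points, 0.367 to 10.9). The intervals are not adjusted for their number.

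The size of the difference in dense windows, and whether its interval left out 0, varied with the chromosomes kept and with the width limit. Without chromosome 5 the difference was 3.99 points (-1.25 to 9.67), and leaving out chromosome 9, 11, 16 or 17 also brought the interval to 0 (values 4.86 to 5.05 points). Without the windows of 3 or more wide regions the difference was 4.43 points (-0.624 to 9.90), an interval that held 0. Those windows were dense and were picked for their wide regions, so leaving them out had to lower the difference. That value therefore does not show a dependence on a few windows. With a limit of 400 bp in place of 500 bp it was 0.791 points (-2.57 to 4.36).

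The share of wide regions was lowest in the sparsest and highest in the most crowded windows, without rising from each class to the next. The classes were set after the data had been seen. In windows of 1 or 2 regions, 30 of 1266 were wide (2.37%, 1.60 to 3.37), and in windows of 3 to 5 it was 105 of 3290 (3.19%, 2.62 to 3.85). Windows of 6 or 7 had 75 of 1886 (3.98%, 3.14 to 4.96) and windows of 8 to 10 had 61 of 1650 (3.70%, 2.84 to 4.72). Windows of 11 to 25 regions had 47 of 913 (5.15%, 3.81 to 6.79), an interval that did not meet that of the sparsest class. These 47 were spread over 36 windows on 15 chromosomes, with no more than 10 on any of them. At the sparse end, 8 wide regions (2.52%) were alone in their window, against 5.00% of the others (difference -2.48 points, -3.81 to -0.0709). Of these 8, 3 were on chromosome 18.

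Among width classes the dense share showed no steady rise. It was 26.6% (24.5 to 28.7) for regions under 100 bp, between 28.6% and 29.3% for those from 100 up to 400 bp, and 25.4% (21.2 to 30.0) from 400 up to 500 bp. It was 32.9% (26.7 to 39.5) from 500 up to 600 bp and 36.4% (26.9 to 46.6) for the 99 regions of 600 bp or more. The median distance to the nearest region was 74.6 kb (63.5 to 89.1) from 400 up to 500 bp, 66.0 kb (50.3 to 85.7) from 500 up to 600 bp and 51.4 kb (38.0 to 76.5) from 600 bp. Both measures thus had their extreme values in the widest class, and its intervals met those of the class just under 500 bp.

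**Figure D5:**
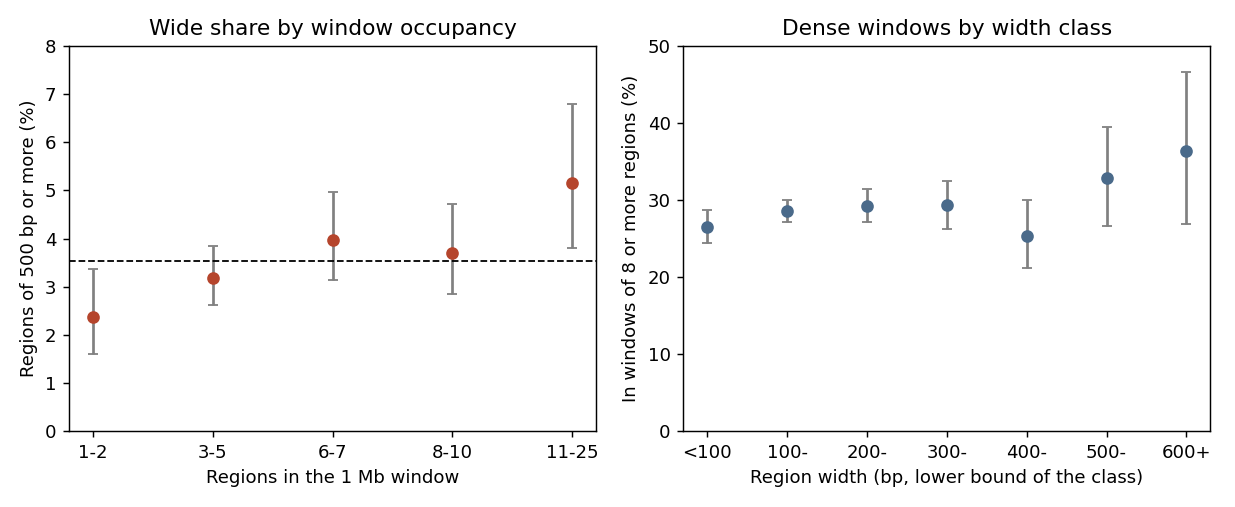
Left, share of regions that are 500 bp or wider (y axis, percent) by the number of listed regions in the 1 Mb window (x axis), with 3.53% as a dashed line. Right, share of regions in windows of 8 or more regions (y axis, percent) by width class (x axis, lower bound in bp). Points carry 95% exact Clopper-Pearson intervals. On the left the values run from 2.37% to 5.15%, and on the right the class from 400 bp (25.4%) lies lowest and that of 600 bp or more (36.4%) highest.

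The spacing of wide regions among themselves was not set against an expected spacing. Wide regions were few, with 8.06 Mb of chromosome span for each. They occupied 286 of the 2258 windows that hold any region (12.7%), and 257 of them (80.8%) were the only wide region in their window. The median distance from a wide region to the nearest other wide region was 2.11 Mb (quartiles 0.67 and 4.87 Mb). Another wide region lay within 1 Mb for 103 (32.4%), within 100 kb for 18 and within 10 kb for 2. The latter form 1 pair, chr14:20573729-20574244 (516 bp) and chr14:20576479-20577033 (555 bp), whose midpoints lie 2.77 kb apart. Where 2 wide regions were each other's nearest region, as in this pair, both are counted in what follows, and the intervals treat them as independent. The nearest region of any width was itself wide for 18 wide regions (5.66%, 3.39 to 8.80) and for 3.55% of the others (3.17 to 3.96), a difference of 2.11 points (0.024 to 5.25). This measure was not among the 4 main differences in shares. By chromosome it was higher for wide regions on 8 and lower on 12.

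Only 2 windows held more than 2 wide regions. On chromosome 5, the window from 118 to 119 Mb held 4 among its 14 regions. They lay as 2 couples, chr5:118095212-118095723 (512 bp) with chr5:118121131-118121682 (552 bp), 25.9 kb apart, and chr5:118508539-118509247 (709 bp) with chr5:118548633-118549205 (573 bp), 40.0 kb apart. On chromosome 7, the window from 52 to 53 Mb held 3 among 19 regions, chr7:52201450-52201996 (547 bp), chr7:52350668-52351309 (642 bp) and chr7:52748179-52749027 (849 bp). A further 27 windows held 2 each. The most crowded windows did not hold the most wide regions. The window from 90 to 91 Mb of chromosome 1 had 2 among 25, and that from 3 to 4 Mb of chromosome 11 had 1 among 24.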

How the data were processed

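Each library was sequenced with single-end reads of 50 bp, per the labels. The deposited list gives each region a start and an end on mm9, per the submitters' processing notes. The 2 score columns are 0 in all rows as deposited. The aligner, the peak caller, its threshold and the use of input, odd and even libraries are not given in the sources used here, and the depth is unknown. Neither is it stated what the word unique in the list's name means.

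Starts were counted from 1 and mitochondrial regions were set apart. Distances were taken between midpoints, windows were fixed at 1 Mb, and a chromosome's span lay between its outermost regions. Shares carry exact Clopper-Pearson intervals, differences Newcombe intervals and medians order-statistic intervals (Python 3.11.15, scipy 1.17.1). The functions were tested on simulated data. Regions named are the 20 widest, those within 10 kb of another wide one, windows with 3 or more, and chromosomes at the extremes. Further regions named were picked with their values in view. The members and comparisons were chosen with earlier results of these data known. Alternatives were other width limits, comparison sets, end stretches, distances and windows. Gene and sequence context was not analysed here, since the tables at hand are on another build than mm9.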

Additional observations from a re-analysis of the deposited data

How the results depend on the processing

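With a limit of 600 bp, wide regions were at -5.44 percentage points in the last 10% and at -3.49 points in the first 10% of the span, and both intervals held 0. Widening the neighbour limit from 10 kb to 100 kb took that difference to 5.84 points. The number of chromosomes whose interval left out the overall share was 1 with 400 bp (chromosome 13, 4.97% against 7.95%) and 1 with 600 bp (chromosome 9), instead of 0. These intervals are not adjusted for the 20 chromosomes looked at. The causes were not tested. The difference in dense windows ranged from 3.99 to 7.18 points over the 20 runs without 1 chromosome, and its interval held 0 in 5 of them. It was 7.99 points with 600 bp, where the interval also held 0 (-0.863 to 17.9). It was 5.15 to 8.44 points under the other window definitions tried and 7.52 points after joining regions less than 1 kb apart. Joining made some regions wide through their nearness to others, so that last value is no separate support. The ratio of median distances was 0.697 to 0.912 over the other settings. Leaving out each autosome, leaving out the windows of 3 or more wide regions and joining regions were chosen after seeing the data. No paired analysis was possible because there is 1 library in each group and no value by library. The alternative for gene context was not run.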

Other observations

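The mitochondrial genome, which the width rule leaves out, had 3 of its 5 listed regions at 500 bp or more, the widest at 5072 bp, against 3.53% of nuclear regions. The wide nuclear region farthest from any other listed region lay 1485 kb from it, on chromosome 18.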
